A study of Homo sapiens with 30 samples.

Results

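The comparison described here is that of resting cells of the human leukaemic T cell line Jurkat E6-1, edited to lack isoform 1 of SLAMF6 (KO) with unedited cells of the same line (WT). Its members are the libraries titled KO0_B1, KO0_B2 and KO0_B3 against WT0_A1, WT0_A2 and WT0_A3, which are 6 of the 30 RNA sequencing libraries of the series. Every gene that passed a filter on expression over all 30 libraries was tested, including genes that were scarce at rest. Both groups were labelled unstimulated at time point 0. The other 24 libraries hold the same genotypes, 3 libraries per group, at time points 6, 12, 24 and 36 (unit not given in the labels) of activation by PMA, a phorbol ester, together with ionomycin, which lets calcium in. The edited cells are also named SLAMF6∆17-65 in the labels. The title of the series speaks instead of an overexpressed isoform 3, and the design text was followed. Neither the number of edited clones nor separate cultures for the 3 libraries of a group are given in the labels. P-values therefore cover library-to-library spread, which may be technical, and a difference between clones cannot be told apart from the edit.

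SLAMF6 is a receptor of the SLAM family on T, B and NK cells that binds another SLAMF6 molecule on a neighbouring cell and signals through the adaptor SAP and the kinase FYN. Its extracellular part is made of immunoglobulin-like domains, the outermost of which carries the binding face, and isoforms that differ in this domain arise by splicing. Jurkat cells have an active PI3K pathway at rest, divide rapidly, and make a T cell receptor on the surface, which is why they serve as a model of T cell signalling.

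The 6 resting libraries held 5.64 to 28.2 M counts, and the library numbered 2 was the shallowest of both groups, with 7.59 M in WT and 5.64 M in KO. All symbols starting with MT- took 5.96 to 6.02% of the counts in WT and 7.19 to 7.85% in KO, groups that do not overlap. These symbols include more than the 13 mitochondrially encoded transcripts described below. WT library 1 stood apart in its scarcest transcripts: after all libraries were thinned to 5635013 counts it held 26201 symbols with a count, against 21549 to 23596 in the other 5. No 2 libraries agreed within sampling noise. The T cell identity of the cells was plain in both genotypes, since all 13 T cell marker genes found were detected, with CD3D at 1124 CPM (CPM being counts scaled to the library's total in units of 1 M) in WT and 951 CPM in KO and LCK at 1136 and 1143 CPM. Erythroid and monocyte markers were absent or scarce: HBA1 and HBG1 had no count, and the 9 monocyte and macrophage markers together came to 5.64 to 11.9 CPM per library. The 8 NK cell markers together came to 12.2 to 18.0 CPM. The 8 B cell markers, BLK among them, reached more, at 43.9 to 55.7 CPM per library.

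SLAMF6 itself was measured at 19.0, 25.1 and 19.4 CPM in WT and 18.2, 21.0 and 18.6 CPM in KO. The groups overlap, and the log2 difference of -0.13 (SE 0.14, adjusted p = 0.682) did not pass the threshold of 0.05. This total over the gene does not check the edit, because the deposited files give 1 value per gene symbol and none per isoform. If the deleted 17-65 are residues of the longest annotated protein, which the labels do not state, they are encoded by 147 bases of transcript SLAMF6-203 in GENCODE 29, of which 146 lie in exon 2. That exon of 333 bases lies at chr1:160496061-160496393 on the minus strand of GRCh38, inside a gene that spans 160485030 to 160523262, and 1 of the 3 annotated transcripts leaves it out. The stretch is printed because the study's contrast rests on it, as the transcript's coding strand from 5′ to 3′ in lower case.
SLAMF6 codons 17 to 65: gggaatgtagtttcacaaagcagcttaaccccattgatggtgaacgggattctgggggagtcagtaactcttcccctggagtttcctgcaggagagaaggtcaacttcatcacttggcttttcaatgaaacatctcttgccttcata

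Of 21554 genes tested, 1309 (6.07%) differed between KO and WT at rest at an adjusted p under 0.05 in edgeR's quasi-likelihood test. Of these, 641 were higher in KO (2.97% of genes tested) and 668 lower (3.1%), which puts 49.0% of the calls on the higher side. Differences of at least 2-fold were found for 130 of the higher and 344 of the lower genes. Among genes between 10 and 100 CPM the calls leaned to higher levels in KO, with 425 higher and 194 lower of 6612 tested. Among those between 1 and 10 CPM, in contrast, 100 were higher and 217 lower of 5014. At 100 CPM or more 109 were higher and 166 lower of 2526, and under 1 CPM 7 were higher and 91 lower of 7402. The shares of 2.97% higher and 3.1% lower over all genes tested are the background of every gene list below. They include the scarce genes and were not matched to the level of a list. At 45 of the lower genes no KO library held a count, while 2 of the higher genes had no count in any WT library. The 3 libraries of each genotype did not overlap at 1254 of the 1309 called genes, against 25.2% of all genes tested. The number called rested on the libraries used: it was 650 without WT library 1, 760 without KO library 1, 696 without KO library 3 and 660 without both libraries numbered 2. In bulk RNA a lower level in every cell and a smaller share of cells with the transcript cannot be told apart. Libraries with the same number deviated together at rest, and with the number as a replicate block 974 genes were higher and 873 lower.

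**Figure D1:**
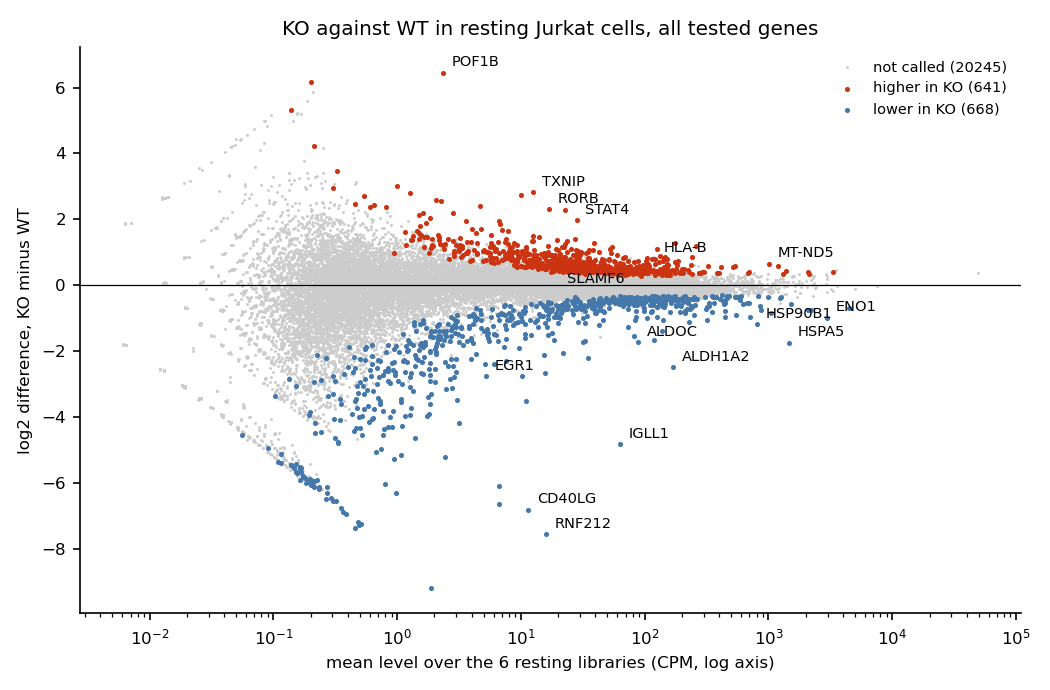
Log2 difference between KO and WT at rest for each of the 21554 tested genes against its mean level over the 6 resting libraries (CPM, log axis); grey points are not called, red points are higher and blue points lower in KO at an adjusted p under 0.05. Of the 641 higher genes 24 lie above 2 log2 units and of the 668 lower genes 208 lie below -2, and SLAMF6 lies among the uncalled genes near 0.

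The largest differences were taken from called genes of at least 10 CPM at which the KO and WT libraries did not overlap. Among these the largest rise was that of TXNIP, an arrestin that binds thioredoxin and limits glucose uptake. It stood at 3.46, 1.61 and 3.70 CPM in WT and 22.7, 21.8 and 22.2 CPM in KO. The fitted rise was 7.10-fold (log2 2.83, SE 0.31, adjusted p = 1.1e-07). FAM110B, a centrosome-associated protein, stood at 1.71, 3.08 and 3.12 CPM in WT and 18.7, 14.8 and 18.2 CPM in KO. Next came RORB, a nuclear receptor of the ROR family, with 5.48, 6.04 and 5.50 CPM in WT and 26.7, 30.1 and 27.3 CPM in KO. IPCEF1, a partner of the cytohesin exchange factors, had 9.01, 6.04 and 7.59 CPM in WT and 37.3, 37.0 and 38.7 CPM in KO. For each of these the KO libraries lay close together and far above WT, with log2 differences of 2.75, 2.31 and 2.27.

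STAT4, the transcription factor that carries interleukin-12 signals to helper T cells, was at 13.3, 9.93 and 10.7 CPM in WT and 44.4, 44.9 and 46.4 CPM in KO, a 3.95-fold rise (log2 1.98, SE 0.22, adjusted p = 5.04e-07). Receptors followed: the lysophospholipid receptor gene P2RY10 was at 3.65, 1.61 and 2.71 CPM in WT and 9.69, 10.6 and 11.9 CPM in KO, and PTGER3, which encodes a prostaglandin E2 receptor, at 3.50, 1.61 and 4.58 CPM in WT and 11.7, 10.2 and 10.4 CPM in KO. CR2, the complement receptor CD21, was at 7.30, 5.10 and 6.75 CPM in WT and 17.9, 18.3 and 19.3 CPM in KO. CD55, which protects cells from complement, rose from 11.1 ± 1.92 CPM in WT to 27.9 ± 1.03 CPM in KO (SD, n = 3), and its call was lost without WT library 1 or 3, KO library 1 or 3, or both libraries numbered 2. The rises at these receptors ranged from 2.58-fold for CD55 to 3.84-fold for P2RY10.

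The remaining genes of this group are RGS18, a regulator of G protein signalling, ABTB2, the secreted resistin gene RETN, butyrylcholinesterase (BCHE), PHLDB2 and GABARAPL1, an autophagosome protein, whose log2 rises were 1.88, 1.64, 1.48, 1.42, 1.40 and 1.36. Among genes of 1 to 10 CPM, POF1B, an actin-binding protein of epithelia, was at 0, 0 and 0.11 CPM in WT and 4.97, 3.17 and 5.94 CPM in KO, so it was nearly silent in WT. CYTIP, which restrains cytohesins in lymphocytes, was at 0.35, 0.134 and 0.147 CPM in WT and 1.66, 1.41 and 2.33 CPM in KO, and the glycosyltransferase gene GALNT13 at 0.816, 0.134 and 0.66 CPM in WT and 4.42, 2.29 and 4.06 CPM in KO.

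On the lower side, where genes were chosen by the same rule, several were nearly off in KO. RNF212, a ubiquitin-like ligase of meiotic recombination, was at 32.8, 31.8 and 30.3 CPM in WT and 0.298, 0.352 and 0 CPM in KO, or 1909 counts against 9. CD40LG, the ligand by which helper T cells activate B cells, was at 24.5, 23.1 and 20.6 CPM in WT and 0.128, 0.352 and 0.225 CPM in KO. CPXM1, a carboxypeptidase-like protein, was at 13.6, 9.12 and 16.1 CPM in WT and 0, 0.528 and 0.15 CPM in KO, and the membrane skeleton gene ADD2 at 15.7, 11.4 and 12.2 CPM in WT and 0.17, 0.705 and 0.0752 CPM in KO. No KO library exceeded 1 CPM at any of the 4, all WT libraries were above 9 CPM, and the log2 differences were -7.54 (SE 0.44), -6.79 (SE 0.50), -6.62 (SE 0.40) and -6.09 (SE 0.64).

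IGLL1, the surrogate immunoglobulin light chain of early lymphocytes, fell from 113, 134 and 121 CPM in WT to 5.02, 5.28 and 3.27 CPM in KO, a 28.2-fold difference (log2 -4.82, SE 0.24, adjusted p = 9.68e-15). ALDH1A2, which makes retinoic acid, was the most abundant gene of this set in WT, at 293, 267 and 304 CPM in WT and 54.8, 48.1 and 52.3 CPM in KO. PREX2, an activator of the GTPase RAC, was at 18.0, 21.3 and 21.4 CPM in WT and 1.96, 0.705 and 1.92 CPM in KO. In each of the 3 the groups were far apart beside their spread.

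The dynein heavy chain gene DNAH14, the phospholipase gene PLCH1, the inducible heat shock gene HSPA6, the T cell membrane proteolipid MAL, C10orf107, the exchange factor DOCK5, the zinc finger regulator ZNF521 and the chemokine receptor CCR4 made up the rest, with log2 differences of -2.75, -2.64, -2.37, -2.28, -2.18, -2.12, -2.04 and -1.89. The calls of ZNF521 and CCR4 were both lost without WT library 1, KO library 1, KO library 3 or both libraries numbered 2, and that of HSPA6 without both libraries numbered 2. HSPA6 closely resembles other HSP70 genes, so its counts could include reads of theirs. At 1 to 10 CPM, the transcription factor TFAP2A had 50 counts in WT and none in KO, at least 15.4-fold lower against a floor of 3 counts over the group. MME, the thymocyte and lymphoblast peptidase CD10, was at 1.67, 2.41 and 1.80 CPM in WT and had 1 count in all KO libraries, as had FAM26F, at 1.44, 2.15 and 1.14 CPM in WT.

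**Figure D2:**
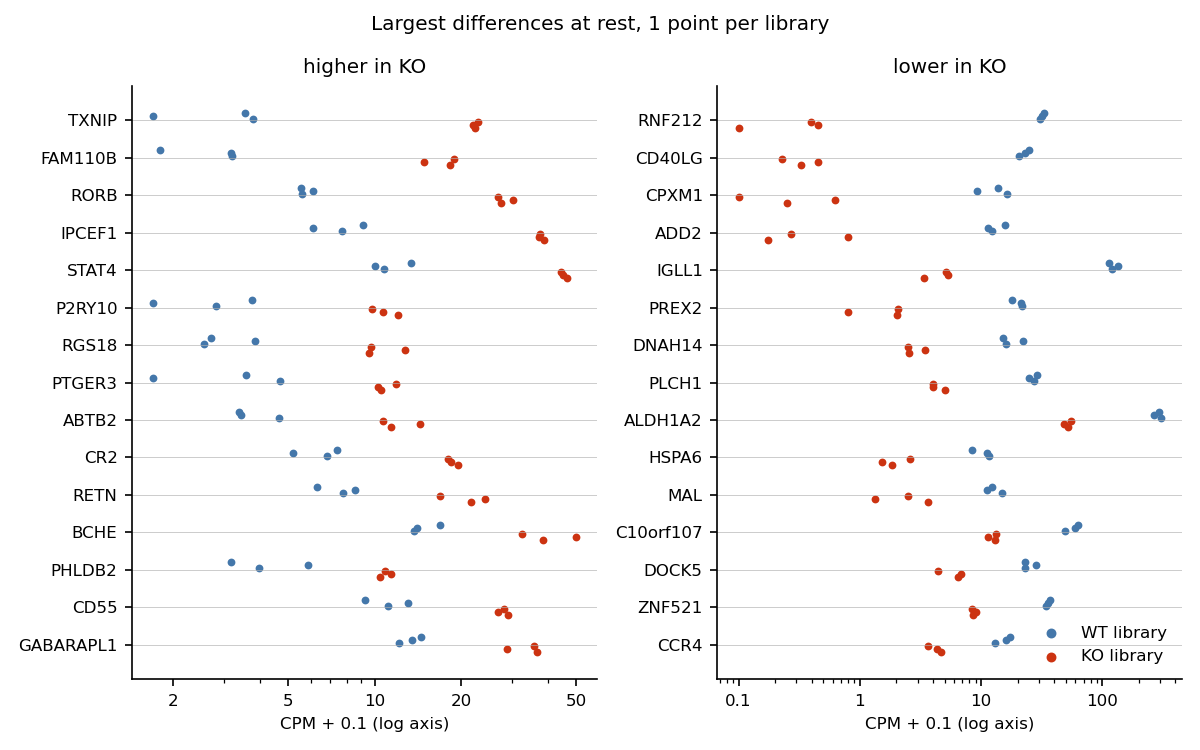
Level of the 15 largest rises (left) and 15 largest falls (right) among called genes of at least 10 CPM whose KO and WT libraries do not overlap, 1 point per resting library (CPM + 0.1, log axis; blue WT, red KO). That choice of genes puts the 3 red points on 1 side of the 3 blue points at every gene. RNF212, CD40LG, CPXM1 and ADD2 are below 1 CPM in all KO libraries.

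Among the falls, 1 group was that of the unfolded protein response of the endoplasmic reticulum (ER). When unfolded proteins build up in this compartment, the sensors ATF6, IRE1 and PERK raise chaperones, folding enzymes and degradation factors. ATF6 and the IRE1 product XBP1 act on promoters through the ER stress response element, in which a CCAAT box and a CCACG lie at a fixed distance, and through a compact variant of it. Of 25 ER chaperone and folding genes tested, 12 were lower in KO and 0 higher, against 3.1% and 2.97% of all genes. For genes of at least 100 CPM, 166 were lower and 109 higher of 2526, and between 10 and 100 CPM 194 and 425 of 6612. The median log2 difference of the 25 genes was -0.33 against -0.0053 over all genes.

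HSPA5, the master chaperone BiP, was at 2320.0, 2089 and 2332 CPM in WT and 725, 603 and 699 CPM in KO, 3.32-fold lower (log2 -1.73, SE 0.11, adjusted p = 1.65e-14). HSP90B1, the ER form of HSP90, was at 1151, 1129 and 1078 CPM in WT and 507, 475 and 520.0 CPM in KO. SDF2L1, which holds BiP clients in solution, was at 182, 211 and 210.1 CPM in WT and 68.7, 83.0 and 79.2 CPM in KO. At all 3 the lowest WT library stood above the highest KO library.

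MANF, a secreted stress protein retained by BiP, fell from 104 ± 8.90 CPM in WT to 42.8 ± 8.40 CPM in KO (SD, n = 3). The disulfide isomerases PDIA3, PDIA4 and PDIA6 had log2 differences of -0.52, -0.73 and -0.83, and the BiP co-chaperones DNAJB9 and DNAJC3 of -0.61 and -0.80. HYOU1, the nucleotide exchange factor of BiP, was at 102, 84.2 and 109.7 CPM in WT and 78.0, 50.2 and 65.1 CPM in KO, and the lectin chaperone calnexin (CANX) at 911, 897 and 901 CPM in WT and 752, 726 and 706 CPM in KO. The calls of HYOU1 and CANX were both lost without WT library 1 or 3 or KO library 2. CRELD1 was the other lower member (log2 -0.63). Members that did not pass included calreticulin (CALR, log2 -0.20, adjusted p = 0.423), the abundant isomerase P4HB (0.11, adjusted p = 0.569) and the oxidase ERO1L (0.01, adjusted p = 0.988).

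Among 32 genes of ER degradation, stress sensing and secretion, 4 were lower and 0 higher, against 3.1% and 2.97% of all genes. Their median was -0.14. HERPUD1, which recruits the degradation ligase, was at 180.0, 178 and 186 CPM in WT and 59.8, 53.2 and 59.0 CPM in KO, 3.15-fold lower (log2 -1.66, SE 0.10, adjusted p = 1.64e-14). XBP1 was at 112, 105 and 119 CPM in WT and 56.6, 49.0 and 56.6 CPM in KO. The dislocation factors DERL2 and DERL3 were the other lower members (log2 -0.47 and -2.53). The sensors did not pass, with log2 differences of 0.06 for ATF6, 0.42 for the IRE1 gene ERN1 and -0.28 for the PERK gene EIF2AK3, and neither did the subunits of the translocon and the oligosaccharyl transferase. DESeq2's Wald test called 9 of these 32 lower, and 12 of the 25 chaperone genes. Without both libraries numbered 2, and likewise without WT library 1, edgeR called 4 of the 32 and 10 of the 25.

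The bases before the transcription start of some of these genes were examined in RefSeq promoter windows (GRCh38.p14, 250 bases before each start, read on both strands). The ER stress response element, searched as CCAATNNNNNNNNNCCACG, stood in 22 of 27305 windows (0.0806%) and in 14 of the 11600 windows of tested genes (0.121%). Of 445 windows of genes lower in KO, 4 held it (0.899%), those of HSPA5, HSP90B1, XBP1 and CANX, and of 449 windows of higher genes 0 held it. The compact element, searched as ATTGGNCCACG, stood in 14 of 27305 windows (0.0513%), in 11 windows of tested genes and in 4 of lower genes (0.899%), those of HERPUD1, SDF2L1, HYOU1 and the actin bundler PLS3, which had 42 counts in WT and 1 in KO and lost its call when any 1 resting library was left out. The 2 patterns share the CCACG and an inverted or direct CCAAT, and no window of a tested gene held both. Over the 25 tested genes with either, 18 had a negative log2 difference, and CALR and CRELD2 hold the longer pattern and did not pass the test (log2 -0.20 and -0.02). These genes were chosen with their values known, and a match describes letters in a window, not a bound factor. The windows of 6 lower genes are printed on the gene's own strand, with each match in capitals.
HSPA5 (chr9:125241344-125241593, minus strand): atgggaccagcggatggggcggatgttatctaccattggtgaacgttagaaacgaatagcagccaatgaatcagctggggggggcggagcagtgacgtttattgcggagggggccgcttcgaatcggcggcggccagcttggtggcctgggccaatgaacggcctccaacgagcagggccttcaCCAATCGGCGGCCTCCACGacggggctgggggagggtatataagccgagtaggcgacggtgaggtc
HSP90B1 (chr12:103930160-103930409, plus strand): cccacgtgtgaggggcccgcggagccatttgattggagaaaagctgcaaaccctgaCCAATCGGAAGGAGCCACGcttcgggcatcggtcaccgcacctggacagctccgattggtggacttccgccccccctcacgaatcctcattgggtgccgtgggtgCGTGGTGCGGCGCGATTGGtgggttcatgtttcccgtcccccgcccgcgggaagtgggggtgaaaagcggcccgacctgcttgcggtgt
XBP1 (chr22:28800570-28800819, minus strand): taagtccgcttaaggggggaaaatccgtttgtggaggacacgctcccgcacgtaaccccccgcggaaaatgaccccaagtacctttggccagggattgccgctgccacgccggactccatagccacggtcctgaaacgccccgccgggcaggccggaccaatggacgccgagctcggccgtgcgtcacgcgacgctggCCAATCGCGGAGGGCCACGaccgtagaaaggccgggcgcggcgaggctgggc
HERPUD1 (chr16:56931892-56932141, plus strand): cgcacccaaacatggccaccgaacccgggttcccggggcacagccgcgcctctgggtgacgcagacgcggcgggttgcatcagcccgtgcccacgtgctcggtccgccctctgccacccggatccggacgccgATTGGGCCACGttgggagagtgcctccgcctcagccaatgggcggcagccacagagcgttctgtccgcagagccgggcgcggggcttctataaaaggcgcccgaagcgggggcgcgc
SDF2L1 (chr22:21642052-21642301, plus strand): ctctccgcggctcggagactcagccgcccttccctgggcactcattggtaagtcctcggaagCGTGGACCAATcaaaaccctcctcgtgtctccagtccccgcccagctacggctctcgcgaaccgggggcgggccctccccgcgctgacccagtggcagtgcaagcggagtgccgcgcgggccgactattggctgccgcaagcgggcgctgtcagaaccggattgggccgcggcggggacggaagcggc
HYOU1 (chr11:119057206-119057455, minus strand): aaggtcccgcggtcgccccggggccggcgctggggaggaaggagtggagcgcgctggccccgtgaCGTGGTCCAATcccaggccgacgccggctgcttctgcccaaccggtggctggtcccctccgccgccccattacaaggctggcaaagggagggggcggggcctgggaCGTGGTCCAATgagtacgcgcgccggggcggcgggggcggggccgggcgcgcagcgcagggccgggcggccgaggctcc
The windows of HSP90B1 and HYOU1 each hold their pattern in 2 places.

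Genes of cholesterol synthesis were another group of falls. Sterol-poor membranes release the transcription factor SREBP2 to raise the enzymes of the mevalonate pathway. The classic sterol regulatory element, searched in its fixed form of 10 letters on both strands of the same promoter windows, stood in 10 of 27305 (0.0366%), in 5 of tested genes, in 0 of lower genes and in 1 of higher genes. Of 29 genes of cholesterol synthesis and uptake, 16 were lower in KO and 2 higher, against 3.1% and 2.97% of all genes. Their median log2 difference was -0.42. The isomerase IDI1 was at 596, 637 and 538 CPM in WT and 277, 341 and 303 CPM in KO (log2 -0.94, SE 0.12, adjusted p = 5.04e-07). MSMO1, a sterol demethylase subunit, was at 309, 351 and 274 CPM in WT and 132, 154 and 145 CPM in KO, and the epoxidase SQLE at 396, 376 and 392 CPM in WT and 236, 246 and 252 CPM in KO. No KO library reached the lowest WT library at any of these 3 enzymes.

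The falls ran along the pathway: the synthase HMGCS1 (log2 -0.78) and the decarboxylase MVD (-0.62) before squalene, and HSD17B7 (-0.70), EBP (-0.42), SC5D (-0.41) and DHCR7 (-0.79) after it. The sterol carrier gene STARD4 was also lower (log2 -0.59, adjusted p = 0.0105). The 2 higher members were the regulators themselves, SREBF2, which encodes SREBP2 (115 CPM in WT and 169.6 in KO, adjusted p = 0.0273), and its escort SCAP (71.2 and 94.7 CPM, adjusted p = 0.048). The WT and KO libraries overlapped at SREBF2, and neither gene was called without WT library 1, WT library 2, KO library 2 or KO library 3, or with GC-corrected scaling. Between 11 and 14 members were lower when 1 resting library was left out and 10 without both numbered 2.

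Of 17 genes of fatty acid synthesis and desaturation, 3 were lower and 1 higher, against 3.1% and 2.97% of all genes. TMEM97, a sterol-regulated ER protein, was at 317, 327 and 321 CPM in WT and 178, 160.3 and 183 CPM in KO, and the fatty acid synthase gene FASN at 49.0, 63.0 and 65.8 CPM in WT and 22.3, 31.9 and 25.3 CPM in KO. The elongase ELOVL6 fell from 19.7 ± 0.52 CPM in WT to 10.4 ± 0.228 CPM in KO (SD, n = 3). These 3 falls were called in every alternative run. The libraries of the 2 genotypes overlapped at the higher member, FADS3. None of the 10 tested genes of sterol efflux passed in edgeR (median log2 0.34), with 5 higher and 1 lower at an unadjusted p under 0.05, and DESeq2's Wald test called 1.

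Of 23 genes of glycolysis and glucose uptake, 8 were lower and 0 higher, against 3.1% and 2.97% of all genes. Their median log2 difference was -0.23. The largest fall was that of the aldolase isozyme ALDOC, at 139.7, 117 and 151 CPM in WT and 42.2, 38.0 and 43.0 CPM in KO (log2 -1.72, SE 0.21, adjusted p = 3.23e-06). ENO1, the main enolase of most tissues, was at 4189, 3277 and 4313 CPM in WT and 2192, 1563 and 2239.7 CPM in KO. Phosphoglycerate kinase (PGK1) was at 2669, 2630.0 and 2604 CPM in WT and 1529, 1567 and 1593 CPM in KO, and the isomerase gene GPI at 1039, 946 and 1098 CPM in WT and 705, 602 and 698 CPM in KO. The other lower members were ALDOA, TPI1, LDHA and PKM, with log2 differences of -0.55, -0.75, -0.73 and -0.35. GAPDH was not called (log2 -0.12, adjusted p = 0.499), and neither were the glucose transporters SLC2A1 (-0.23) and SLC2A3 (-0.39) nor the hexokinases. The summed level of the 23 genes was 23398, 21379 and 24047 CPM in WT and 16832, 14811 and 17286 CPM in KO, so each KO library was below each WT library.

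Fewer genes were called in related metabolic lists. Of 17 hypoxia targets, BNIP3L, a mitophagy receptor, was lower (log2 -0.65) and the demethylase KDM3A and the prolyl hydroxylase EGLN3 higher (0.54 and 0.95). ARRDC3, an arrestin related to TXNIP, rose from 12.3 ± 5.45 CPM in WT to 27.2 ± 4.99 CPM in KO (SD, n = 3), a call lost without both libraries numbered 2, and with TXNIP made 2 of 12 genes of their list. Among 31 genes of the amino acid stress response, ATF4 was higher, at 143, 104 and 148 CPM in WT and 238, 169.6 and 246 CPM in KO, while DDIT3, the death-linked factor CHOP, was lower, at 41.3, 40.9 and 40.6 CPM in WT and 23.0, 26.1 and 23.9 CPM in KO. The 2 factors differed in opposite directions, and STC2 was the other call (log2 -0.99), lost when any 1 resting library was left out.

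Of 13 mitochondrially encoded transcripts 4 were higher and 0 lower, against 2.97% and 3.1% of all genes. The 4 are all subunits of complex I, and the list median was 0.29. The 13 summed to 15962, 15239 and 16253 CPM in WT and 17782, 16945 and 19655 CPM in KO. That is a minor part of the counts of all symbols starting with MT-. MT-ND5 was at 784, 771 and 813 CPM in WT and 1230.2, 1089.5 and 1420.5 CPM in KO (adjusted p = 4.27e-05). MT-ND1 (0.60), MT-ND6 (0.54) and MT-ND4 (0.34) were the others on the log2 scale. The complex I subunits MT-ND2 (0.14), MT-ND3 (0.29) and MT-ND4L (0.09) did not pass. Neither did MT-CYB (0.30, adjusted p = 0.0804), MT-ATP6 (0.23) and MT-ATP8 (0.16). Of the oxidase subunits, MT-CO1 (0.29, adjusted p = 0.0548), MT-CO2 (-0.17) and MT-CO3 (-0.26) did not pass. The count of higher members was 2 without WT library 1, 2 or 3 or KO library 1, and 1 without KO library 3. Counts of these genes could include reads of nuclear copies. Of 36 nuclear oxidative phosphorylation genes 1 was called, ATP5G1, lower at a log2 difference of -0.44, and its call was lost in 6 of the alternatives.

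**Figure D3:**
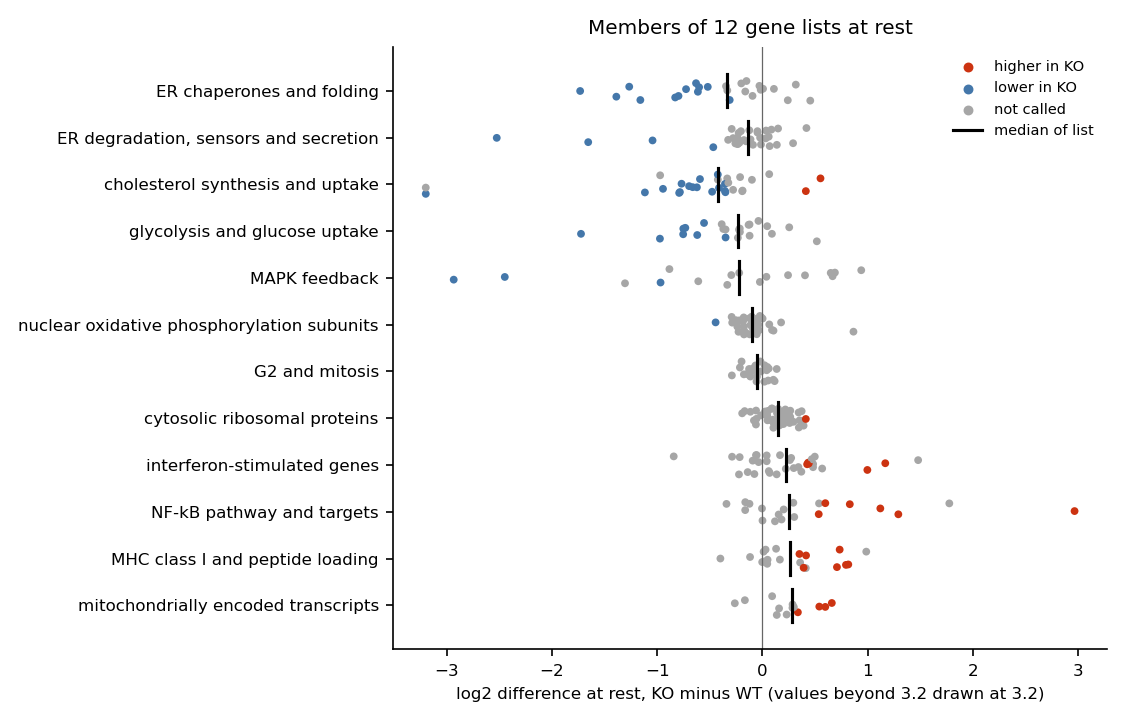
Log2 difference at rest (KO minus WT) of each tested member of 12 gene lists; red members are higher, blue members lower at an adjusted p under 0.05, grey members were not called, and black bars are list medians. The ER chaperone, cholesterol and glycolysis lists reach to the left with medians of -0.33, -0.42 and -0.23, while all calls in the NF-kB, MHC class I, interferon and mitochondrial lists are red.

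Within the SLAM family, the homophilic receptor LY9 was lower in KO, at 19.9, 21.3 and 17.3 CPM in WT and 7.14, 8.28 and 9.06 CPM in KO (log2 -1.25, SE 0.18, adjusted p = 1.06e-05). CD244, the receptor for CD48, was higher, at 17.0, 18.4 and 15.7 CPM in WT and 28.2, 27.0 and 30.6 CPM in KO. SLAMF7 was also higher at a low level (0.971, 0.939 and 0.66 CPM in WT and 2.25, 2.82 and 2.18 CPM in KO), a call lost in 6 alternatives, and SLAMF8 lower (2.41, 0.671 and 2.53 CPM in WT and 0.213, 0.528 and 0.225 CPM in KO). These are 4 of the 11 family members and adaptors tested, 2 in each direction, against 3.1% lower and 2.97% higher of all genes. The median over the 11 was -0.05.

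Of 24 genes of the T cell receptor complex and its proximal signalling, 4 were lower and 1 higher, against 3.1% and 2.97% of all genes. TRBC2, a constant segment of the receptor beta chain, was at 963, 847 and 994 CPM in WT and 511, 410.4 and 538 CPM in KO (log2 -0.94, adjusted p = 9.04e-07), and CD3G, a chain of the CD3 complex, at 843, 877 and 744 CPM in WT and 552, 579.5 and 561 CPM in KO. Counts of TRBC2 could be shared with the near-identical TRBC1. The coreceptor CD4 was lower, at 9.94, 12.2 and 10.9 CPM in WT and 5.14, 5.64 and 5.22 CPM in KO, and the phosphatase PTPN6, known as SHP-1 and able to bind SLAM receptors, fell from 175 ± 13.2 CPM in WT to 112 ± 2.61 CPM in KO (SD, n = 3). Both calls were lost without KO library 1 or without both libraries numbered 2. The phospholipase PLCG1, which the receptor activates, was the higher member (log2 0.97). The 13 T cell markers, which overlap this list, summed to 5824, 5771 and 5929 CPM in WT and 5070.0, 5054 and 5307 CPM in KO. That sum rests on the abundant markers, TRBC2 and CD3G among them. Of the 13 markers 2 were called lower and 0 higher, 8 had a positive difference, and the median log2 difference was 0.01.

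Surface molecules of thymocytes and activated T cells showed 5 lower and 1 higher of 30, against 3.1% and 2.97% of all genes. CD69, the early activation antigen that keeps lymphocytes in tissue, was at 26.4, 24.0 and 22.8 CPM in WT and 8.71, 8.46 and 8.53 CPM in KO (log2 -1.51, SE 0.23, adjusted p = 0.000106). The lipid-presenting molecules CD1A, CD1B and CD1C, which mark cortical thymocytes and are neighbours on chromosome 1, were all lower, while CD1E (1169 CPM in WT and 1371 in KO, log2 0.23) and CD1D (log2 0.16) did not pass the test. CD1A was at 286, 242 and 273 CPM in WT and 156, 151 and 158 CPM in KO. CD1B was at 170.0, 166 and 164 CPM in WT and 81.7, 85.6 and 89.1 CPM in KO, and CD1C at 149.5, 132 and 138 CPM in WT and 74.3, 58.1 and 76.1 CPM in KO. Their sequences resemble each other, so reads may be shared among them. IL2RA, the high-affinity interleukin-2 receptor chain, was scarce and lower (1.71, 1.61 and 0.367 CPM in WT and 0.17, 0 and 0.338 CPM in KO), a call lost without WT library 1 or KO library 1. The tetraspanin CD53 was the higher member, at 125, 111 and 130.4 CPM in WT and 199, 161 and 199 CPM in KO.

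Other thymocyte genes went both ways. PTCRA, the partner of the beta chain in the pre-T cell receptor, was at 6.76, 10.2 and 8.62 CPM in WT and 1.87, 1.76 and 1.32 CPM in KO. RAG2, a subunit of the recombinase, rose by 1.06 on the log2 scale, a call lost in 6 alternatives. Its partner RAG1 went the other way, at 17.1 CPM in WT and 8.77 in KO, and did not pass (log2 -0.95, adjusted p = 0.174). Of the 17 genes of recombination and thymocyte identity, 5 were lower and 2 higher, against 3.1% and 2.97% of all genes. The lower members are PTCRA and, already given above, CD1A, CD1B, CD1C and CD4.

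Several transcription factors of T cell lineage and helper fate differed beside STAT4. Of 33 tested, 8 were higher and 4 lower, against 2.97% and 3.1% of all genes. TCF7, needed for T cell commitment, was at 156 CPM in WT and 359 in KO (adjusted p = 0.00931), and the inhibitor of E proteins ID3 at 172 and 313 CPM (adjusted p = 0.00722). RORA was at 11.7, 17.7 and 11.5 CPM in WT and 30.3, 42.1 and 24.1 CPM in KO. Conversely, ZBTB16, the factor of innate-like T cells, was at 0.855, 2.68 and 1.98 CPM in WT with 2 counts in all KO libraries, TOX2 was at 2.10, 0.939 and 0.99 CPM in WT and 0.17, 0.705 and 0.188 CPM in KO, and the exhaustion-linked TOX at 155 CPM in WT and 97.8 in KO. The number of higher members was 4 without WT library 1 and 5 without KO library 1 or both libraries numbered 2. No member of the 20 tested leukaemia and Notch pathway genes was called by edgeR or DESeq2's Wald test, with 5 higher and 1 lower at an unadjusted p under 0.05.

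Some targets of MAPK signalling were lower in KO. EGR1, an immediate early gene of the ERK pathway, was at 8.86, 10.7 and 8.14 CPM in WT and 1.40, 1.06 and 1.35 CPM in KO (log2 -2.75, SE 0.24, adjusted p = 1.62e-09). Of 17 feedback genes 3 were lower and 0 higher, against 3.1% and 2.97% of all genes. Over the 17, 7 differences were positive and 10 negative. SPRED2, an inhibitor of RAF activation, was at 27.1, 26.0 and 27.9 CPM in WT and 14.3, 13.7 and 13.4 CPM in KO, and the Sprouty gene SPRY4 at 2.99, 3.35 and 3.85 CPM in WT and 0.085, 1.41 and 0.526 CPM in KO. Its relative SPRY2 was at 2.02, 2.55 and 2.71 CPM in WT and 0.553, 0 and 0.451 CPM in KO. KO libraries did not overlap WT at any of the 4 genes, and each call held in every alternative run. The AP-1 subunit JUN was higher, at 2.02, 1.88 and 1.69 CPM in WT and 6.33, 7.05 and 5.22 CPM in KO. With NFATC2 higher (log2 0.50) and FOSL1 lower, at 20 counts in WT and 1 in KO, 2 of 27 immediate early and activation factors were called in each direction.

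Of 20 NF-kB pathway genes and targets 6 rose and 0 fell, against 2.97% and 3.1% of all genes, and the median log2 difference was 0.25. BIRC3, an apoptosis inhibitor and target of the pathway, was at 23.1, 24.9 and 19.3 CPM in WT and 48.5, 59.7 and 56.0 CPM in KO (log2 1.29, SE 0.14, adjusted p = 3.71e-08). NFKBIA, the inhibitor that the pathway induces, was at 22.7, 23.5 and 28.0 CPM in WT and 40.8, 51.3 and 41.7 CPM in KO, and RELB, a subunit of its noncanonical arm, at 1.90, 2.15 and 2.49 CPM in WT and 5.53, 3.52 and 4.62 CPM in KO. CYLD, a deubiquitinase that restrains it, rose by 0.54 on the log2 scale. TNIP1 (0.60) and the scarce BCL3 completed the 6. Without WT library 2, without both libraries numbered 2, or with GC-corrected scaling, 4 were called.

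The neighbours NFKBIL1, LTA and TNF on chromosome 6 were all higher. Lymphotoxin alpha (LTA) was at 3.34, 3.08 and 4.44 CPM in WT and 8.42, 5.99 and 10.1 CPM in KO. The inflammatory cytokine gene TNF was at 1.40, 1.07 and 0.367 CPM in WT and 2.59, 2.47 and 2.52 CPM in KO, and NFKBIL1 at 7.38, 10.9 and 12.2 CPM in WT and 15.6, 24.5 and 21.4 CPM in KO. The call of TNF was lost without WT library 3 and that of NFKBIL1 without WT library 1. Of 24 cytokine genes tested, 2 were higher and 2 lower, against 2.97% and 3.1% of all genes. IL32, a cytokine of T and NK cells, was at 106, 109 and 124 CPM in WT and 62.1, 52.3 and 58.5 CPM in KO, and LIF had 18 counts in WT and none in KO, at least 5.54-fold lower against a floor of 3 counts over the group. The granule protease GZMA was lower as well, at 56.1, 38.0 and 50.7 CPM in WT and 12.2, 14.3 and 18.0 CPM in KO, and the granule proteoglycan SRGN higher (log2 1.20), the 2 calls among 13 granule genes. Of 26 cytokine receptors and their signalling genes, TGFBR2, the receptor for TGF-beta, fell from 20.5 ± 1.04 CPM in WT to 12.5 ± 0.752 CPM in KO (SD, n = 3), and IL2RA was the other call. CCR4 was among the 2 calls in 26 chemokine receptor, integrin and homing genes.

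Of 20 genes of MHC class I and its peptide loading, 7 were higher in KO and 0 lower, against 2.97% and 3.1% of all genes. Their median was 0.26. The heavy chain gene HLA-B was at 84.3, 90.4 and 88.0 CPM in WT and 152, 144 and 165 CPM in KO, and HLA-C at 125, 145 and 138 CPM in WT and 215, 229 and 222 CPM in KO. Their log2 differences were 0.82 and 0.71, and the groups did not overlap. Reads of these related genes may be counted to the wrong member. TAP1, a subunit of the peptide transporter, was at 77.7, 67.3 and 86.1 CPM in WT and 127, 129 and 129.8 CPM in KO, and it stands next to PSMB8, TAPSAR1 and PSMB9, all higher, on chromosome 6. TAPSAR1 runs antisense to its neighbour, and since the strand setting of the counting is not given in the sources used here, the reads of the pair cannot be told apart. The log2 rises of the immunoproteasome subunits PSMB8 and PSMB9 were 0.39 and 0.41, and the trimming peptidase ERAP1 rose by 0.35. Without WT library 1 or 2, or KO library 1 or 3, or both numbered 2, 4 members were called.

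Interferon-stimulated genes had 5 of 33 higher and 0 lower, against 2.97% and 3.1% of all genes, with a median of 0.22. BST2, the virus-tethering protein tetherin, was at 35.2, 29.9 and 35.5 CPM in WT and 77.5, 66.6 and 82.1 CPM in KO, and OAS2, a sensor of double-stranded RNA, at 19.1, 14.2 and 22.7 CPM in WT and 36.6, 35.2 and 41.9 CPM in KO. STAT2 and IRF9, subunits of the factor that answers type I interferon, rose by 0.44 and 0.43, and XAF1 by 0.43. BST2 and OAS2 were called in every alternative, whereas the count of higher members was 2 without KO library 1 or 3 and 3 without WT library 2 or both libraries numbered 2.

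**Figure D4:**
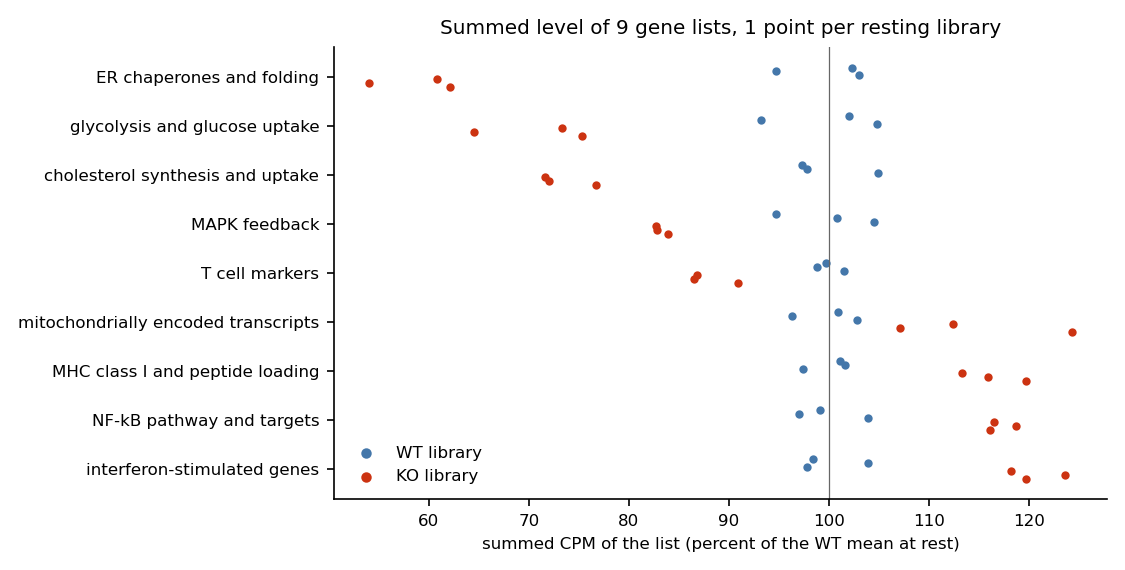
Summed CPM of the members of 9 gene lists in each resting library, as percent of the mean of the 3 WT libraries (blue WT, red KO). Red points lie below blue points for the first 5 lists and above them for the last 4, with no overlap in any list drawn. The 9 lists are a selection made with values known. Most of the lists not drawn do not overlap either. They include lists with 0 members called, such as G2 and mitosis, leukaemia and Notch genes, sterol efflux and NK cell markers. The sums of the SLAM family and of the B cell and monocyte markers are among those that overlap. Separate sums are therefore not particular to the 9 lists drawn. A sum rests on the abundant members: the T cell markers had a median log2 difference of 0.01.

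Cytosolic chaperones were called in both directions. HSPA8, the constitutive HSP70, was at 5911, 4945 and 5559 CPM in WT and 3625, 2907 and 3655 CPM in KO, and its cofactors DNAJB1 and DNAJA1 were also lower (log2 -0.52 and -0.39). HSP90AA1 was higher, at 1209.8, 1182 and 1156 CPM in WT and 1618, 1517 and 1694 CPM in KO. Over the 15 heat shock genes the calls were 3 lower and 1 higher.

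Few proliferation genes were called. Of 25 genes of G2 and mitosis (median log2 -0.05) edgeR and DESeq2's Wald test called 0, with 0 higher and 1 lower at an unadjusted p under 0.05, and the 3 calls among 28 S phase genes, CDC6 (-0.46), RRM1 (-0.31) and MCM6 (-0.33), were all lost when any single resting library was left out. Among G1 regulators the inhibitors CDKN1B, at 12.0, 19.7 and 12.7 CPM in WT and 23.7, 28.0 and 20.9 CPM in KO, and CDKN2C, at 9.83, 10.1 and 20.9 CPM in WT and 24.1, 29.9 and 38.9 CPM in KO, were higher, as was the kinase CDK6 (log2 0.41). These 3 calls were 3 of 15 tested, and without WT library 1 none remained. Of 45 cytosolic ribosomal protein genes 1 was called, RPSA (log2 0.41), and 37 had a positive difference. With the replicate block 7 were higher. Among 24 apoptosis genes 3 were higher and 1 lower, against 2.97% and 3.1% of all genes. Caspase 8 (CASP8, log2 0.63) and the BH3 protein PMAIP1 (0.51) were higher besides BIRC3, and BAK1 (-0.41) was lower.

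Genes that mark other tissues gave few calls. Of 13 tested cancer-testis and germline genes, PRAME was higher, at 134, 116 and 126 CPM in WT and 187, 164 and 181 CPM in KO, MAGEA4 was lower, at 1.32, 2.01 and 1.25 CPM in WT and 0, 0.352 and 0.301 CPM in KO, and RNF212 was the other. BLK, a kinase of B cells that early T cells also make, rose from 10.3 ± 0.832 CPM in WT to 16.7 ± 2.29 CPM in KO (SD, n = 3) and was the only call among 7 B cell markers. Of the 6 monocyte markers edgeR and DESeq2's Wald test called 0, with 1 higher and 2 lower at an unadjusted p under 0.05. Of 5 NK cell markers edgeR called 0 and the Wald test 1, with 1 higher and 0 lower at an unadjusted p under 0.05. Of 6 adherent line markers edgeR called 0 and the Wald test 1, with 1 higher and 2 lower at an unadjusted p under 0.05.

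At STMN3, RTEL1 and TNFRSF6B, neighbours on chromosome 20, all levels were higher in KO, with log2 differences of 1.00, 0.46 and 1.79. RTEL1 and TNFRSF6B overlap through a read-through transcript, and the call of RTEL1 was lost in 11 alternatives. Together with CD1A to CD1C and the pair of runs on chromosome 6, these were the 4 runs of at least 3 neighbours called in 1 direction among the 17183 tested genes with a position (79.7%).

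Base composition moved with the difference. Among genes of at least 10 CPM split by the GC content of their transcripts, the 1716 richest in GC, at 56.6% or more, had a median log2 difference of 0.14, with 169 higher and 50 lower, while the other 4 of 5 bins of equal size had medians of -0.02 to 0.04. In the richest bin the median deviation from the mean of the 6 libraries was -0.13, -0.07 and 0.02 log2 units in WT libraries 1, 2 and 3 and 0.05 to 0.07 in the KO libraries. With GC-corrected scaling, 519 genes were higher and 909 lower, so that 36.3% of calls were higher against 49.0%. The part of GC content in the results was not tested.

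The differences at rest were then set against those at the later times, which share no library with those at rest. At time points 6, 12, 24 and 36, 9.93%, 11.4%, 9.55% and 13.5% of genes were called between KO and WT. Genes higher in KO made up 5.2%, 5.93%, 4.86% and 6.96% of all tested at these times and lower genes 4.73%, 5.45%, 4.69% and 6.52%. Of the 641 genes higher at rest, 52 (8.11%) were higher at all 4 later times and 323 (50.4%) at none, and 67 (10.5%) were called lower at 1 or more of them. Of the 668 lower genes, 94 (14.1%) were lower at all 4 and 288 (43.1%) at none, and 109 (16.3%) were called higher at 1 or more of them. The shares of all tested genes called higher or lower at 1 or more later times, or at all 4, were not counted. These percentages therefore have no background beside them. The difference at rest departed from its mean over the later times, by a test of that difference, at 1228 genes (5.7%), which include 200 of those higher and 238 of those lower at rest. That count was 643 without WT library 1, 702 without KO library 1 and 1858 with the replicate block.

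Among the lasting differences, IGLL1 had log2 differences of -6.16, -6.08, -4.70 and -4.56 at 6, 12, 24 and 36, PREX2 of -4.58, -3.60, -2.93 and -2.99 and MAL of -1.99, -2.34, -2.50 and -2.32. Those of TXNIP were 1.55, 2.45, 2.59 and 1.83. BCHE stayed higher at 1.18, 1.68, 1.19 and 1.06, as did TAP1 at 0.86, 0.98, 1.37 and 1.00. At these 6 genes the difference at rest was not told apart from the later mean, with adjusted p from 0.139 to 1.0.

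Chaperone genes of the ER were lower at rest and at 6, and some were higher later. HSPA5 was at log2 -1.73 at rest and -1.33, 0.45, 0.47 and 0.66 at the later times, and its difference at rest departed from the later mean by -1.80 (adjusted p = 6.42e-13). HERPUD1 had later differences of -1.10, 0.92, -0.09 and 0.21 and MANF of -1.41, 0.13, 0.44 and 0.47. Of the 25 chaperone genes, 17 were lower at 6, 1 at 12 and none at 24 and 36, where 9 were higher at each. At 9 of the 25, and at 3 of the 32 genes of ER degradation, sensors and secretion, the difference at rest was below the later mean by the test of that difference. DERL3 was still lower at 36 (log2 -4.30, adjusted p = 0.00229).

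Cholesterol genes were lower at rest and mostly higher at 12 and 24. MSMO1 went from -1.12 at rest to 0.13, 0.60, 0.93 and 0.48, and IDI1 from -0.94 to -0.31, 0.16, 0.45 and 0.26. Of the 29 genes, 5 were lower and none higher at 6, 15 were higher and 1 lower at 12, 18 higher and 1 lower at 24 and 4 higher and 2 lower at 36, and at 20 the difference at rest was below the later mean by the test of that difference. Among glycolysis genes 11 of 23 were below it too, among them ENO1 (-0.97 at rest, then -0.30, 0.32, 0.34 and 0.65). Of the 17 MAPK feedback genes 0 were lower at 6, 12 and 24 and 1 at 36, while 4, 7, 4 and 5 were higher. EGR1 had later differences of -0.67, 0.02, 0.39 and 0.67, and SPRED2, at -0.97 at rest, of 0.46, 0.56, 0.72 and 0.49. LY9 had later differences between -0.45 and 0.22 and CD69 between -0.40 and -0.03, none of which passed.

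**Figure D5:**
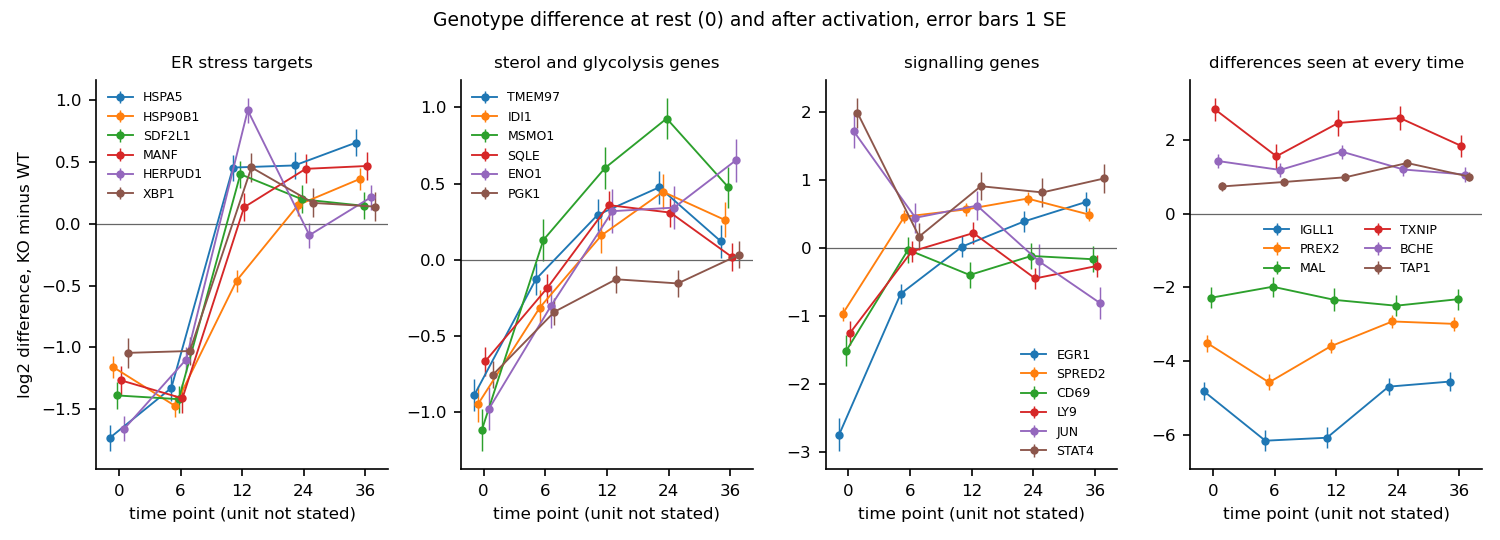
Log2 difference between KO and WT at rest (0) and at the 4 later time points for 24 genes in 4 panels, with error bars of 1 SE from the fit; the time points are drawn at equal spacing and the vertical scales differ between panels. The ER genes lie below 0 at 0 and 6, and all but HSP90B1 (at -0.46) at or above 0 at 12. The sterol and glycolytic genes are lowest at 0. The 6 genes of the last panel were chosen as differences seen at every time, so their constant sign follows from that choice. Of 1309 genes called at rest, 146 were called in the same direction at all 4 later times.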

How the data were processed

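RNA sequencing of total RNA from 30 Jurkat libraries was deposited as 1 table of estimated counts per gene symbol for each library. The submitters' processing notes name the tools STAR, DESeq2 and cutadapt and the genome build as hg19 or GRCh37; for versions, roles, the read counter and its strand setting, the sources used here say nothing. The deposited expected counts were nearly all whole (0.177% of values were not, over 195 symbols) and were rounded. A table of the whole series, whose columns are shifted against their header, was not used.

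Of 54300 symbols, 21554 passed edgeR's filterByExpr (minimum count 10). All 30 libraries (10 groups, 20 residual degrees of freedom) were fitted together in edgeR 4.0.16 (limma 3.58.1, R 4.3.3) with TMM scaling and the robust quasi-likelihood test, so all groups share 1 estimate of the spread. Adjusted p follows Benjamini and Hochberg over all genes tested, with a threshold of 0.05. Levels are CPM after TMM scaling, and folds are fitted. The test was tried on simulated counts. Totals at rest were 5.64 to 28.2 M; no share of counts is given an interval, since replicates carry the error, and floors cover counting error only.

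The comparison, gene lists and motifs were chosen with earlier results of these data known. Named genes are SLAMF6, the 15 largest non-overlapping rises and falls of at least 10 CPM, the 3 largest of each at 1 to 10 CPM, up to 4 called members of each list by p, and runs of neighbouring called genes; CANX, HYOU1 and PLS3 and other list members were added after their values were seen. Some genes are not reported here. Alternatives were DESeq2 1.42.0 (size factors, Wald test), other filters, the resting libraries alone, each library left out, both libraries numbered 2 left out, a replicate block, and GC-corrected scaling.

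Libraries numbered alike in the titles correlated at rest in their deviations from the group means (0.334, 0.436 and 0.282), though the labels do not say why. The numbers pair libraries only in the runs with the replicate block. The main fit, which gave the adjusted p and SE quoted for genes, leaves this pairing out. Over the 4 times that share numbers, 8 of 12 pairs were over 0.1.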

Additional observations from a re-analysis of the deposited data

Results flagged for a closer look

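Each gene below differed between KO and WT at rest by an amount that departed from its mean difference over time points 6, 12, 24 and 36, by edgeR's quasi-likelihood test of that departure at an adjusted p under 0.05. Values are log2 departures, the difference at rest minus the later mean. Among ER stress genes the departure was -1.80 for HSPA5, -1.64 for HERPUD1, -1.22 for SDF2L1, -1.17 for MANF, -0.98 for XBP1, -0.81 for HSP90B1 and -0.48 for DERL2, and that of DDIT3 was -1.66. The chaperone list members PDIA6, DNAJC3, CRELD1, PDIA3 and PDIA4 departed by -0.79, -0.56, -0.55, -0.51 and -0.41. The sterol genes MSMO1, IDI1, TMEM97 and SQLE had departures of -1.65, -1.08, -1.08 and -0.79, and DHCR7, HMGCS1, MVD, STARD4, HSD17B7, SC5D and EBP of -1.16, -1.12, -1.02, -0.89, -0.80, -0.75 and -0.53. For glycolysis they were -1.23 at ENO1, -1.01 at ALDOC, -0.87 at PKM, -0.77 at LDHA, -0.66 at TPI1, -0.65 at ALDOA, -0.61 at PGK1 and -0.49 at GPI, beside -0.67 at ATP5G1. Each of these genes was lower in KO at rest, and its difference at rest lay below the later mean.

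Signalling genes of the MAPK and immediate early lists departed by -3.50 (SPRY4), -3.47 (FOSL1), -2.85 (EGR1), -1.96 (SPRY2), -1.53 (SPRED2) and 1.70 (JUN). Surface receptors departed by -4.06 (SLAMF8), -2.66 (SLAMF7), -2.30 (CD40LG), -2.16 (IL2RA), -1.33 (CD69), -1.11 (LY9), -0.96 (TRBC2), -0.77 (CD1C) and -0.66 (TGFBR2), and the phosphatase PTPN6 by -0.68. SLAMF7 was higher in KO at rest and higher by more later, and SLAMF8 went from lower at rest to a positive later mean. Secreted and granule genes departed by -5.74 (LIF), -1.38 (GZMA) and -0.50 (IL32), and the immunoproteasome gene PSMB9 by -0.56.

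Genes higher at rest by more than later were POF1B (2.91), GALNT13 (2.73), PTGER3 (1.67), TCF7 (1.61), RORB (1.48), GABARAPL1 (1.40), STAT4 (1.26), IPCEF1 (1.16), ABTB2 (1.01), STMN3 (0.87), CDKN1B (0.75), BLK (0.67), KDM3A (0.64), CDK6 (0.62), XAF1 (0.55), CASP8 (0.50) and HSP90AA1 (0.46). The mitochondrial transcripts MT-ND5, MT-ND6, MT-ND1 and MT-ND4 departed by 0.66, 0.63, 0.63 and 0.39. Among genes nearly off in KO at rest, TFAP2A departed by -6.98 and ADD2 by -3.25. Fitted values of TFAP2A, LIF and FOSL1, with at most 1 count in KO at rest, depend on the prior count of the fit.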

How the results depend on the processing

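Of 165 called genes named in the text, 102 kept their direction and their side of the threshold in every alternative, and 0 reversed in any. The count called at rest ranged from 650 to 1123 when 1 resting library was left out, with 271 to 599 higher and 370 to 526 lower. It was 650 (280 higher, 370 lower) without WT library 1, 760 (348 and 412) without KO library 1 and 696 (271 and 425) without KO library 3, and 359 genes were higher without WT library 2. Without both libraries numbered 2, 660 were called, 301 higher and 359 lower, and 608 genes departed at rest from the later mean. That last count ranged from 643 to 1680 over the libraries left out 1 at a time. With the replicate block, 974 genes were higher (1847 in all) and 1858 departed from the later mean; on the 6 resting libraries alone with the block, 3471 were called, 1770 higher and 1701 lower. DESeq2's Wald test called 1036 lower, against 669 higher (39.2% of calls higher), and its size factors in edgeR's test gave 39.3% higher. The replicate block with GC-corrected scaling, chosen after seeing the data, gave 1194 lower, 755 higher and 2023 departing genes. The number called in 1 direction at rest and at all later times was 146, or 108 to 149 with 1 library left out, and the log2 difference of SLAMF6 lay between -0.19 and -0.02. The replicate block changed no other of these counts by over 1.5 times. Without WT library 1 the calls of ATP5G1, BAK1, BCL3, CANX, CCR4, CD55, CDC6, CDK6, CDKN1B, CDKN2C, EBP, EGLN3, ERAP1, HYOU1, ID3, IL2RA, IRF9, MCM6, MT-ND1, MT-ND4, NFATC2, NFKBIL1, PHLDB2, PKM, PLCG1, PLS3, PSMB8, PSMB9, PTPN6, RAG2, RETN, RPSA, RRM1, RTEL1, SCAP, SLAMF7, SREBF2, SRGN, STC2, TAPSAR1, TCF7 and ZNF521 were lost. Without WT library 2 those of ATP5G1, BCL3, CD4, CDC6, CDK6, CDKN2C, ERAP1, FADS3, IRF9, MCM6, MT-ND4, MT-ND6, NFATC2, PLCG1, PLS3, PSMB8, PSMB9, PTGER3, RRM1, RTEL1, SC5D, SCAP, SREBF2, SRGN, STARD4, STC2, TNIP1 and XAF1 were lost. Leaving out WT library 3 ended those of ATP5G1, BAK1, BCL3, CANX, CD55, CDC6, EBP, FADS3, HYOU1, MCM6, MT-ND1, MT-ND4, PHLDB2, PKM, PLS3, PMAIP1, PSMB9, PTPN6, RAG2, RPSA, RRM1, SLAMF7, SRGN, STC2, TNF and XAF1. Without KO library 1 those of ATP5G1, BAK1, CCR4, CD4, CD55, CDC6, CDK6, EBP, ERAP1, FADS3, FOSL1, IL2RA, IRF9, MCM6, MT-ND4, MT-ND6, NFATC2, PKM, PLCG1, PLS3, PRAME, PSMB8, PSMB9, PTPN6, RAG2, RPSA, RRM1, RTEL1, SCAP, SLAMF7, SRGN, STAT2, STC2, TAPSAR1, TCF7, TNIP1, XAF1 and ZNF521 were lost. Leaving out KO library 2 ended those of ATP5G1, CANX, CDC6, CDKN2C, EBP, HYOU1, MCM6, PKM, PLS3, PMAIP1, PSMB9, PTPN6, RAG2, RPSA, RRM1, RTEL1, SCAP, SLAMF7, SREBF2, STC2, XAF1 and ZNF521. Without KO library 3 those of ATF4, BAK1, BCL3, CANX, CCR4, CD4, CD55, CDC6, CDK6, CDKN2C, DERL3, EGLN3, ERAP1, FADS3, IRF9, KDM3A, MCM6, MT-ND1, MT-ND4, MT-ND6, NFATC2, PKM, PLCG1, PLS3, PMAIP1, PSMB8, PSMB9, RAG2, RPSA, RRM1, RTEL1, SCAP, SLAMF7, SREBF2, SRGN, STARD4, STAT2, STC2, XAF1 and ZNF521 were lost. The cause of these shifts was not tested, except that fewer libraries give fewer residual degrees of freedom. The shallowest library held 5.64 M counts, so differences among scarce genes may not be detectable at this depth.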
